A study of Mus musculus with 6 samples.

Results

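The insulin and IGF receptor signalling genes described here are 9 genes picked by name as receptors, substrates and downstream genes of insulin signalling. All 9 were found among the 44713 genes of the count table, and all 9 passed the filter on low counts that left 12760 genes for testing. They are the receptor genes Insr and Igf1r, the substrate genes Irs1 and Irs2 and the gene Pik3r1 for a regulatory subunit of PI 3-kinase. The others are the kinase genes Akt1 and Akt2, the transcription factor gene Foxo1 and the inhibitor gene Grb10. Expression was measured by RNA-seq of rRNA-depleted total RNA from pancreatic islets of 10-week-old male mice, 3 per group. The db/db group has the genotype Lepr-/- in the labels, without a functional leptin receptor, and is diabetic. The db/m group, called wild type in the labels and littermates in the methods, is not diabetic. Both groups were kept on a normal diet. The labels give C57BL/6 as the strain, whereas the methods of the study give a BKS line. The loss of leptin signalling is present in every tissue from birth, so that obesity, high blood glucose and islet changes come together in this model.

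In the canonical pathway, insulin and the insulin-like growth factors (IGFs) bind the closely related receptor tyrosine kinases Insr and Igf1r, which phosphorylate the docking proteins Irs1 and Irs2. These recruit PI 3-kinase through its regulatory subunit, encoded by Pik3r1, and the lipid that this enzyme makes activates the kinases Akt1 and Akt2. Akt in turn phosphorylates Foxo1 and keeps it out of the nucleus, while the adaptor Grb10 binds the receptors and dampens the signal. In β cells, Irs2 is known to be needed for the growth of β-cell mass, and Foxo1 is known to act in the response of these cells to metabolic stress.

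Gene counts added up to 15641797 reads in the smallest library and 20614531 in the largest, so that 3 counts, taken as the floor, corresponded to 0.146 to 0.192 CPM (counts scaled to library size). Levels below are CPM after TMM scaling, which corrects library size for differences in composition. The 12 acinar markers compared took 37.2% to 49.7% of the reads in every library, against 0.150% to 4.39% for the 10 β-cell markers, although the samples are labelled as islet cells. The β-cell markers summed to 2485 to 6463 CPM in db/db mice and to 7672 to 25177 CPM in db/m mice, with no overlap, and 8 of the 10 were lower in db/db islets at an unadjusted p under 0.05 from edgeR. The acinar markers summed to 485722 to 821676 CPM in db/db mice and to 213524 to 476204 CPM in db/m mice, also without overlap. All 12 acinar markers were detected, and 0 of them had an unadjusted p under 0.05. Levels below are therefore those of a mixed tissue, in which fewer cells of a type and less RNA per cell cannot be told apart. Every tested gene was also fitted with the acinar or the β-cell marker score as a covariate. Since the marker sums of both types followed the groups without overlap, such a fit with so few mice separates group from tissue content poorly. Where a difference moved with a score, the cause was not tested. The gene Lepr had 4, 10 and 68 counts in db/db islets against 37, 25 and 8 in db/m islets. A count per gene does not check the genotype, since the db allele alters splicing of 1 Lepr isoform.

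Of the 9 genes, those with the most negative log2 fold changes in db/db islets were Irs2, Irs1 and Igf1r, and the stretches just upstream of their starts are shown for that reason. Each line gives the 250 bases before the annotated start on the gene's own strand (RefSeq, GRCm38.p6), with capitals for the E-box letters CACGTG and the letters TTGTTTTG, whose reverse complement is known from the insulin response sequence of the Igfbp1 promoter. Both strands were searched for these motifs and for GTAAACA, bound by FoxO factors, and TGACGTCA, bound by CREB.
Irs2, chr8:11008930-11009179, reverse strand: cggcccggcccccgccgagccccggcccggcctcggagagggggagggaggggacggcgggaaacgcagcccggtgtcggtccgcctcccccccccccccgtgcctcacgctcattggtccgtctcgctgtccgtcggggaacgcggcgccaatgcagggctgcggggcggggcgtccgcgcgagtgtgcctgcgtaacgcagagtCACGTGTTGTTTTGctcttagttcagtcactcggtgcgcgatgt
Irs1, chr1:82291440-82291689, reverse strand: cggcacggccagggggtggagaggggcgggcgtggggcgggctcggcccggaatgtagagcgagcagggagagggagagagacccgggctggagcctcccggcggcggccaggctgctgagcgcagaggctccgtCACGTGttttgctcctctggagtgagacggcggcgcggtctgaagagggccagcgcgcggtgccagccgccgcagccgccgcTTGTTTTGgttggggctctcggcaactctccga
Igf1r, chr7:67952007-67952256, forward strand: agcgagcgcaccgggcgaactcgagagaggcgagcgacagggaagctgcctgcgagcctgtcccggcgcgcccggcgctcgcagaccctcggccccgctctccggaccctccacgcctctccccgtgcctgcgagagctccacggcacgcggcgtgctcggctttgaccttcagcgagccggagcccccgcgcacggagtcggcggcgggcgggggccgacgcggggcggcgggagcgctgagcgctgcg
In Irs2 the E-box at position -44 is followed without a gap by TTGTTTTG at position -38, counted from the start. In Irs1 the E-box stands at -115 and TTGTTTTG at -33. The Igf1r stretch held neither. Of 32851 promoter stretches of the same length, 6.02% held CACGTG, 2.21% held TTGTTTTG and 33 held both, and this pair of motifs was noticed after the sequences were seen. GTAAACA (3.17% of stretches) and TGACGTCA (1.55%) were in none of the 3. GC content was 72.8% for Irs2, 72.4% for Irs1 and 77.6% for Igf1r, against a median of 52.4% over all stretches. A match of letters does not show binding, and no factor was measured here.

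The levels of the 9 genes spanned a wide range, and genes can be compared with each other only per length. Levels were scaled to the exons of each gene, as CPM per kilobase of exon (kb). Akt1 was highest in both groups, with 31.2 ± 6.92 CPM per kb (SD, n = 3) in db/m mice and 27.4 ± 3.36 (SD, n = 3) in db/db mice. Igf1r was lowest in both, with 1.24 ± 0.772 CPM per kb (SD, n = 3) in db/m mice and 0.620 ± 0.0619 (SD, n = 3) in db/db mice. In db/m mice Akt1 was followed by Insr (12.6 CPM per kb), Akt2 (10.7), Pik3r1 (9.33), Grb10 (6.30), Irs2 (5.32), Foxo1 (4.62) and Irs1 (2.39). Below Akt1, each neighbour in this order differed from the next by less than the larger of their SDs, apart from Foxo1 and Irs1. In db/db mice the order was Akt1, Akt2 (12.9 CPM per kb), Insr (10.9), Grb10 (9.94), Pik3r1 (9.11), Foxo1 (3.81), Irs2 (1.43), Irs1 (0.949) and Igf1r. Insulin receptor was thus at a higher level per length than IGF1 receptor in both groups, and the 2 substrates were among the 4 genes with the lowest levels in db/m islets and among the 3 lowest in db/db islets. Irs2 stood above Foxo1 in db/m mice and below it in db/db mice, with overlapping values in the former.

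**Figure D1:**
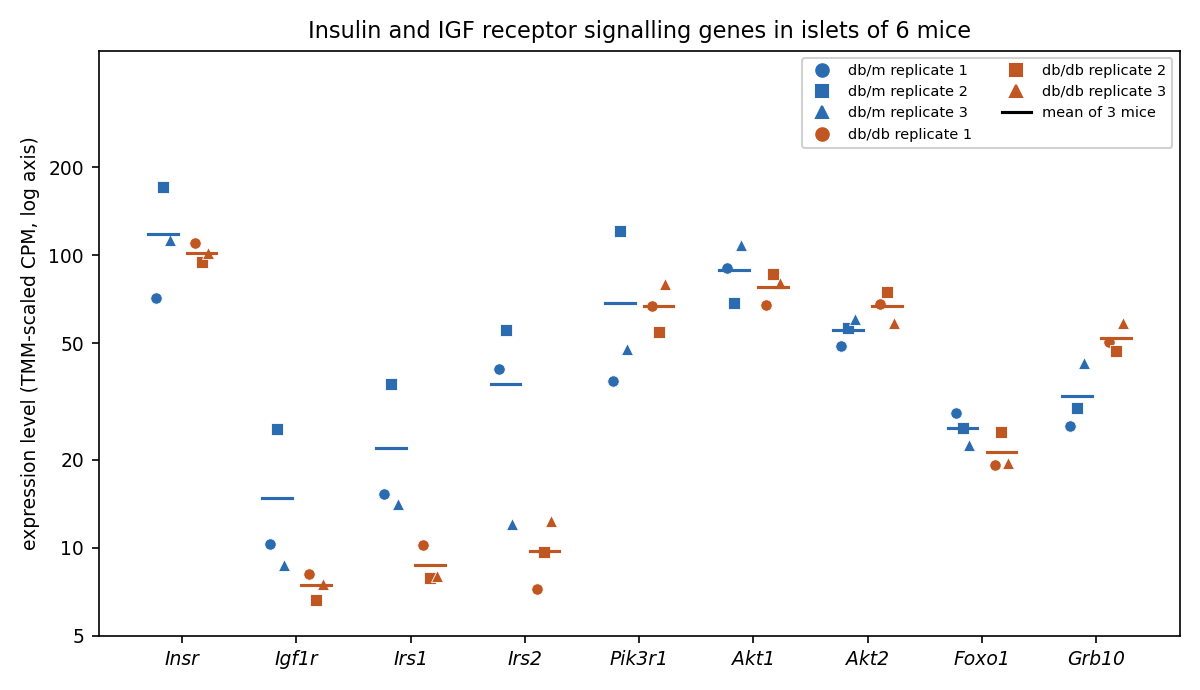
Expression level of the 9 genes in each mouse as TMM-scaled CPM on a log axis, with blue for db/m, orange for db/db, a symbol per replicate number and a bar for the mean of 3 mice. The db/db points lie close together for Igf1r (6.64 to 8.11 CPM) and Irs1 (7.89 to 10.2 CPM), below all db/m points, while db/m replicate 3 lies among the db/db points for Irs2.

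For the comparison of db/db with db/m islets, counts were tested by the quasi-likelihood method of edgeR over all 12760 genes. By this test 79 genes, or 0.619%, had an adjusted p under 0.05, and 0 of the 9 genes were among them. At an unadjusted p under 0.05 there were 14.9% of all tested genes, 9.89% lower and 5.04% higher in db/db islets. Of the 9 genes, 3 were lower at that level (Irs2, Irs1 and Igf1r, 33.3%) and 1 was higher (Grb10, 11.1%). DESeq2 had the same 3 genes lower and 1 higher at an unadjusted p under 0.05, against 10.2% and 6.17% of all tested genes. It gave an adjusted p under 0.05 for 2 of the 9, Irs1 and Irs2, and for 5.54% of all tested genes. The levels of the groups did not overlap for 3 of the 9 genes. Igf1r and Irs1 lay below in db/db mice, as did 12.6% of all tested genes, and Grb10 lay above, as did 8.53%. The median log2 fold change (db/db minus db/m) of the 9 genes was -0.21, against -0.00093 for all tested genes. With library size in place of TMM the median of all tested genes moved to -0.59, so that differences are given below relative to the genes at large.

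Among the receptors, Insr had 110, 94.6 and 102 CPM in db/db islets against 71.5, 170 and 113 CPM in db/m islets. The db/db values lay within the range of the db/m values, in which replicate 2 was high and replicate 1 low. The log2 fold change by edgeR was -0.21 ± 0.32 (standard error), with an adjusted p of 0.795, and it was 0.18 without db/m replicate 2. Insr spans 3150922 to 3279649 on the reverse strand of chromosome 8 (GRCm38), and no other RefSeq gene overlaps it.

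Igf1r, which encodes the IGF1 receptor, had 8.11, 6.64 and 7.53 CPM in db/db islets against 10.3, 25.5 and 8.72 CPM in db/m islets. Every db/db mouse was below every db/m mouse, but db/m replicates 1 and 3 were only slightly above, and replicate 2 was far above the others. These levels rest on 101 to 112 counts per mouse in db/db and 161 to 437 in db/m mice. The difference by edgeR was -0.99 ± 0.40 (log2 fold change ± standard error), with an unadjusted p of 0.0340 and an adjusted p of 0.286. Without db/m replicate 2 it was -0.33, and over the 15 alternatives it kept its direction, with an adjusted p from 0.0753 to 0.712. Adding the β-cell marker score as covariate gave -1.89 ± 0.76 (standard error) for Igf1r (adjusted p = 0.401 from edgeR). For Insr it gave -1.31 ± 0.47 (standard error, adjusted p = 0.353 from edgeR). Both values were further below 0 than without the score, but with larger standard errors. Igf1r spans 67952257 to 68233668 on the forward strand of chromosome 7 and is overlapped by 2 predicted genes on the other strand that are not named in the count table.

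The substrate Irs1 had 10.2, 7.89 and 8.002 CPM in db/db islets against 15.3, 36.3 and 14.1 CPM in db/m islets. The groups did not overlap, and replicate 2 was again the highest of the db/m mice. Irs1 was 2.52-fold lower in db/db islets (edgeR log2 fold change -1.33 ± 0.38, standard error, with an unadjusted p of 0.00622 and an adjusted p of 0.142). It had an unadjusted p under 0.05 in 15 of 15 alternatives, with log2 fold changes from -2.31 to -0.73 and adjusted p-values from 0.00428 to 0.426. The value of -0.73 was obtained without db/m replicate 2, and that of -2.31 with the β-cell marker score as covariate (adjusted p = 0.260 from edgeR). Irs1 lies on the reverse strand of chromosome 1 from 82233105 to 82291439. Of its 50-base stretches, 30.5% are shared with Gm9747, a GENCODE gene not named in the count table.

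Irs2 had the most negative log2 fold change of the 9 genes in the fit without covariates. With the acinar marker score Irs1 was further below 0 than Irs2. With the β-cell marker score Irs1, Igf1r, Insr and Pik3r1 were all further below 0 than Irs2. The counts of Irs2 were 90, 161 and 184 in db/db islets against 1112, 956 and 222 in db/m islets. These gave 7.23, 9.63 and 12.4 CPM against 40.8, 55.7 and 12.0 CPM. The db/m mice were split, with replicates 1 and 2 above all db/db mice and replicate 3 within their range. Irs2 was 3.71-fold lower in db/db islets (edgeR log2 fold change -1.89 ± 0.49, standard error, with an unadjusted p of 0.00397 and an adjusted p of 0.120). Without db/m replicate 3 the log2 fold change was -2.29 (adjusted p = 0.0163 from edgeR). Adding the acinar marker score as covariate gave -1.31 (adjusted p = 0.421 from edgeR) and adding the β-cell marker score gave -1.25 (adjusted p = 0.674 from edgeR). Irs2 spans 10984681 to 11008929 on the reverse strand of chromosome 8 and is overlapped on the other strand by 9530052E02Rik, which had 0 to 16 counts per mouse.

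The pattern of Irs2 over the 6 mice was compared with that of 4992 genes with a mean of at least 10 CPM. Kmt2a (Pearson's r = 0.997), Ncoa2 (0.993), Il6ra (0.993), Amigo1 (0.992) and Mycbp2 (0.991) were the most alike. All 5 had their lowest db/m level in replicate 3, as Irs2 did, which their choice by likeness to Irs2 made likely. The r of 153 genes was above 0.9, and all points share the same 6 libraries and their depths. Kmt2a, a histone methyltransferase gene, had a log2 fold change of -0.60 and Il6ra, a cytokine receptor gene, of -0.81. Those of Amigo1, Ncoa2 and Mycbp2 were -0.40, -0.35 and -0.21.

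Downstream of the substrates, Pik3r1, the regulatory subunit of PI 3-kinase, had 67.0, 54.6 and 79.6 CPM in db/db islets against 37.0, 121 and 47.7 CPM in db/m islets. The db/m mice lay on both sides of the db/db mice. The log2 fold change by edgeR was -0.034 ± 0.42 (standard error), with an adjusted p of 0.979. It became 0.69 without db/m replicate 2 (unadjusted p = 0.0442 and adjusted p = 0.439 from edgeR). With the β-cell marker score as covariate it was -1.26 (adjusted p = 0.570 from edgeR). Insr, Igf1r, Irs1, Irs2 and Pik3r1 thus each had their highest level in db/m replicate 2.

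Akt1 had 67.4, 86.1 and 80.6 CPM in db/db islets against 90.6, 68.6 and 108 CPM in db/m islets, with overlap between the groups. Its log2 fold change by edgeR was -0.19 ± 0.25 (standard error), with an adjusted p of 0.759. Akt2, the isoform known for its role in glucose uptake, had 67.9, 74.7 and 58.6 CPM in db/db islets against 48.8, 56.4 and 60.6 CPM in db/m islets. Its log2 fold change by edgeR was 0.28 ± 0.22 (standard error), with an adjusted p of 0.589, and -0.27 when scaled by library size alone. With the β-cell marker score as covariate Akt1 was at 0.051 and Akt2 at 0.019 on the log2 scale. The processed pseudogene Akt2-ps shares 11.6% of the 50-base stretches of Akt2 and had 32 to 64 counts per mouse, against 846 to 1330 for Akt2.

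Foxo1 had 19.1, 24.9 and 19.5 CPM in db/db islets against 28.9, 25.6 and 22.4 CPM in db/m islets. Only db/db replicate 2 lay above the lowest db/m mouse. The log2 fold change by edgeR was -0.28 ± 0.23 (standard error), with an adjusted p of 0.595, and it was 0.19 with the β-cell marker score as covariate. Grb10, the inhibitory adaptor, was the 1 gene of the 9 with db/db values above all db/m values. It had 50.7, 46.9 and 58.6 CPM in db/db islets against 26.1, 30.0 and 42.8 CPM in db/m islets. Its difference by edgeR was 0.66 ± 0.25 (log2 fold change ± standard error), with an unadjusted p of 0.0284 and an adjusted p of 0.271. It stayed above 0 in 15 of 15 alternatives, with an unadjusted p under 0.05 in 7 of them. When scaled by library size alone it was 0.14, or 0.72 above the median of all genes in that setting. Adding the acinar marker score as covariate gave 0.42 (adjusted p = 0.576 from edgeR) and adding the β-cell marker score gave 0.17 (adjusted p = 0.923 from edgeR). Grb10 is an imprinted gene on the reverse strand of chromosome 11 from 11930499 to 12037428, with LOC102631979 overlapping it on the same strand.

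**Figure D2:**
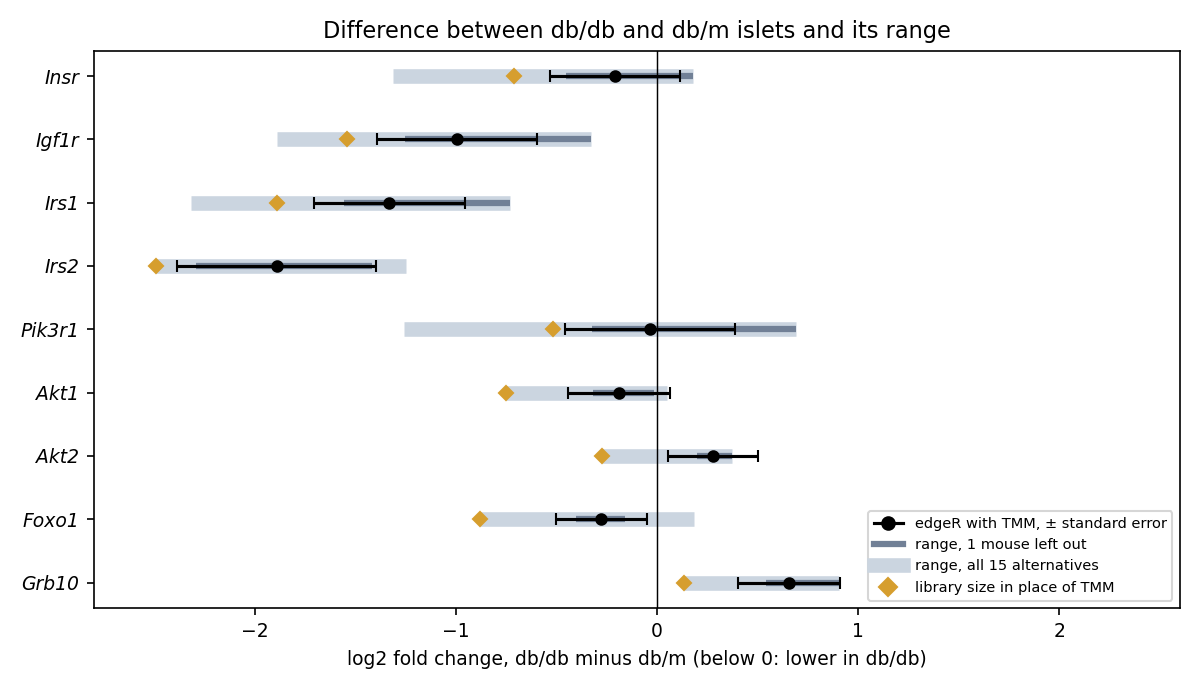
Log2 fold change of each of the 9 genes between db/db and db/m islets, with values below 0 for lower levels in db/db. Black points are the edgeR values with TMM and their standard error, dark bars the range with 1 mouse left out, pale bars the range over 15 alternatives, and diamonds the values with library size. Igf1r, Irs1 and Irs2 stay below 0 and Grb10 above 0 in all of these, while the pale bars of the other 5 genes cross 0.

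Ratios of counts between related genes inside a library do not depend on the scaling between libraries, and 6 of them were tested by exact permutation over mice (two-sided), where the smallest p possible is 0.1. There were 13.5, 14.2 and 13.5 counts on Insr for each count on Igf1r in the db/db mice, against 6.94, 6.69 and 12.9 in db/m islets. The db/db mice were nearly alike and above all db/m mice (log2 difference 0.70, exact permutation p = 0.1, adjusted p = 0.2 over the 6 ratios). The ratio of Pik3r1 to Irs1 was 6.55, 6.89 and 9.90 in db/db islets against 2.42, 3.34 and 3.37 in db/m islets. This was the widest separation among the 6 (log2 difference 1.34, exact permutation p = 0.1, adjusted p = 0.2). The ratio of Grb10 to Insr was 0.461, 0.495 and 0.575 in db/db islets against 0.365, 0.176 and 0.380 in db/m islets, also without overlap (log2 difference 0.81, exact permutation p = 0.1, adjusted p = 0.2). The groups overlapped for Irs2 to Irs1 (exact permutation p = 0.5), Akt1 to Akt2 (exact permutation p = 0.2) and Foxo1 to Akt1 (exact permutation p = 0.8). The 2 substrates thus had a ratio that varied as much within the groups as between them, with 0.710 to 1.54 counts on Irs2 per count on Irs1 in db/db mice and 0.851 to 2.67 in db/m mice.

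**Figure D3:**
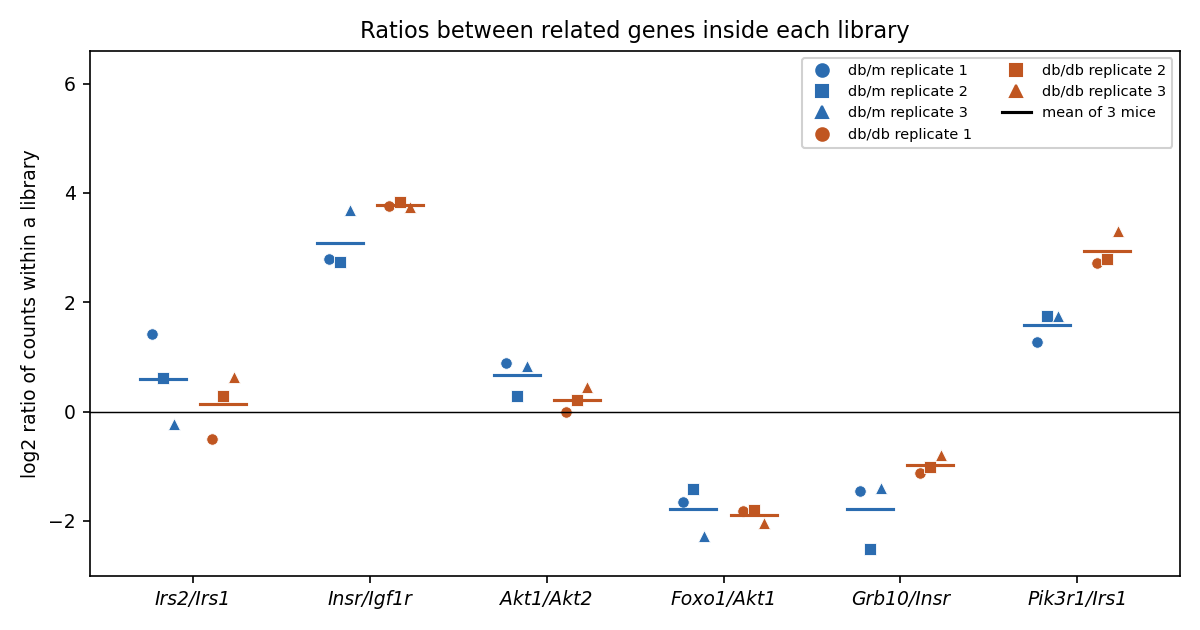
Log2 ratio of the counts of related genes within each library, with blue for db/m, orange for db/db, a symbol per replicate number and a bar for the mean of 3 mice. The db/db mice lie above the db/m mice for Insr/Igf1r, Grb10/Insr and Pik3r1/Irs1, and the groups overlap for the other ratios.

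The rest of the pathway was followed in a list of 108 other genes, of which 97 were tested. Of these, 9 were lower (9.28%) and 2 were higher (2.06%) in db/db islets at an unadjusted p under 0.05 from edgeR, against 9.89% and 5.04% of all tested genes, and 1 had an adjusted p under 0.05. The median log2 fold change of the list was -0.05. The share of genes at that level was thus no higher in the list than among the genes at large, in either direction. None of the 10 tested substrate and adaptor genes other than Irs1 and Irs2, the 5 of PI 3-kinase, the 5 for IGF binding proteins or the 3 other FoxO genes had an unadjusted p under 0.05. Log2 fold changes of the other adaptors, such as Shc1, Grb2 and Gab1, lay between -0.49 and 0.49.

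The gene that passed the adjusted threshold was Insrr, which encodes the insulin receptor-related receptor, another member of the receptor family, which does not bind insulin. Its counts were 39, 158 and 132 in db/db islets against 4890, 1712 and 837 in db/m islets. The levels were 3.13, 9.45 and 8.88 CPM against 179, 99.7 and 45.3 CPM, so that all db/db mice lay far below all db/m mice. Insrr fell by 3.91 on the log2 scale (standard error 0.58, adjusted p = 0.0258 from edgeR), a larger difference than any of the 9 genes showed. Per length, Insrr exceeded Insr in db/m mice on average (21.2 ± 13.2 against 12.6 ± 5.29 CPM per kb, SD, n = 3), although within the spread, and lay below it in db/db mice (1.40 ± 0.685 against 10.9 ± 0.813, SD, n = 3). Over the 15 alternatives its log2 fold change ran from -4.58 to -1.54, and its adjusted p was under 0.05 in 8 of them. It was 0.101 with library size in place of TMM, 0.132 with the replicate block, 0.0750 without db/m replicate 2 and 0.413 with the β-cell marker score as a covariate, where the log2 fold change was -1.54. It lay between 0.107 and 0.131 without any 1 of the db/db mice. The 10 β-cell markers had a median log2 fold change of -2.83, from -5.70 for Mafa to -0.99 for Iapp. The Insrr value lay within that range. Ins2, at -1.23, had the most counts of the 10 markers in every library. A scale relative to 1000 counts on these 10 markers was chosen after seeing the data. On it, Insrr had 1.26 to 1.68 counts in db/db mice and 5.70 to 12.995 in db/m mice (exact permutation p = 0.1). Ins2, with the most counts in this denominator, fell less than Insrr, and any gene that fell more than the denominator is lowered on this scale. The share of all tested genes below on it was not determined, so that this is not a result about Insrr beyond the β-cell markers. On this scale the groups overlapped for Irs2 (1.49 to 2.91 in db/db and 1.51 to 7.26 in db/m mice), Irs1 (1.22 to 4.10 and 0.606 to 4.73) and Igf1r (1.03 to 3.26 and 0.408 to 3.32). Of the 9 genes, 3 lay wholly above in db/db mice on this scale, whose denominator was lower in these mice. These were Grb10 (7.25 to 20.4 against 1.04 to 5.39), Akt2 (11.1 to 27.3 against 1.94 to 7.63) and Foxo1 (3.68 to 7.69 against 1.15 to 3.34), each with an exact permutation p of 0.1. A lower denominator raises the value of any gene, and the share of all tested genes above on this scale was not determined. The count is therefore not a result about these 3 genes.

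**Figure D4:**
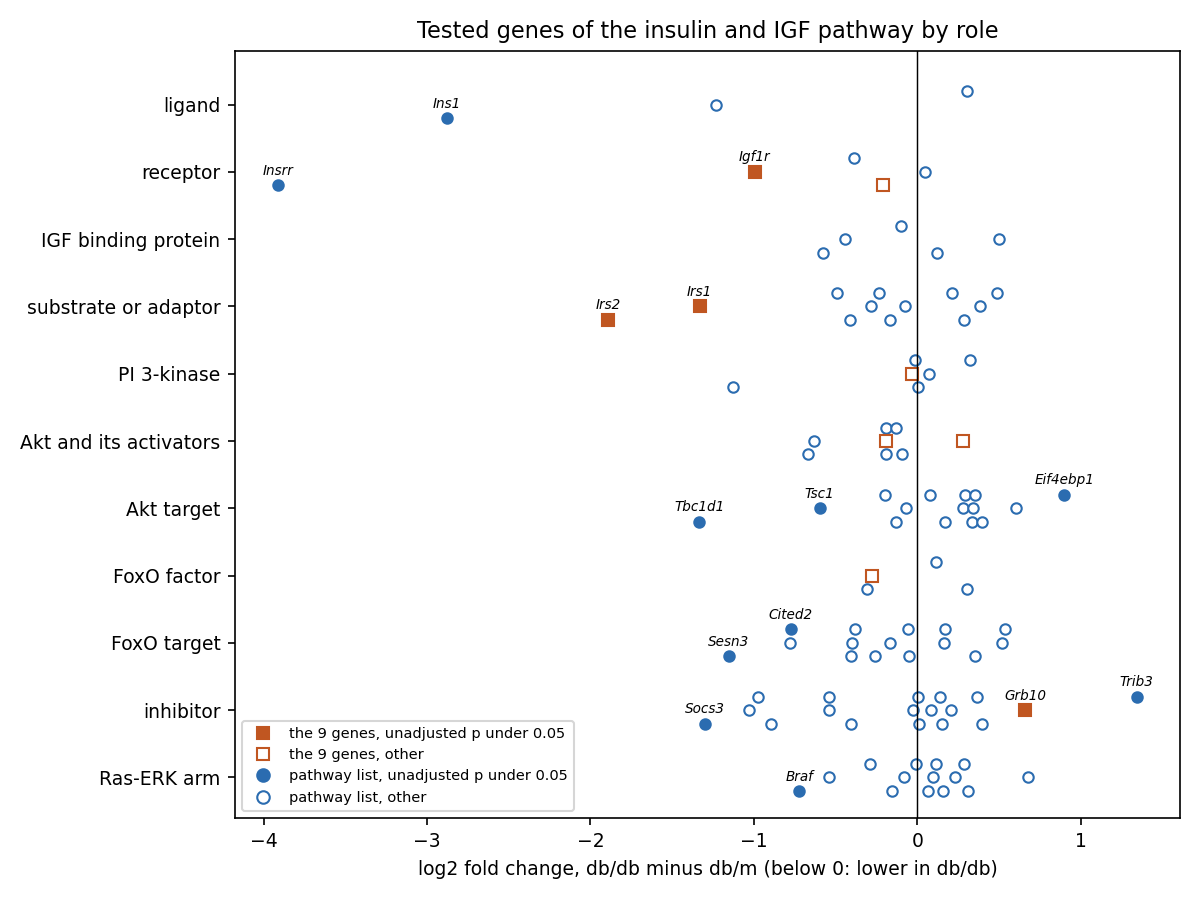
Log2 fold change (db/db minus db/m) of tested genes of the pathway, arranged by role, with squares for the 9 genes, circles for the list of other genes, and filled symbols with names for an unadjusted p under 0.05 from edgeR. Insrr lies farthest below 0 at -3.91, and the adaptors other than Irs1 and Irs2 lie between -0.49 and 0.49.

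Among the ligands, Ins1 had 240, 580 and 554 CPM in db/db islets against 6616, 1614 and 1868 CPM in db/m islets (adjusted p = 0.0870 from edgeR), without overlap. Its log2 fold change of -2.88 became 0.22 with the β-cell marker score, of which it is a part, as a covariate. Ins2 overlapped between the groups (log2 fold change -1.23, adjusted p = 0.388 from edgeR), and so did Igf1 (0.31, adjusted p = 0.727 from edgeR). Igf2 did not pass the filter on low counts, with 2, 6 and 2 counts in db/db islets against 96, 41 and 7 in db/m islets.

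Among the targets of Akt, Eif4ebp1, a repressor of translation that is inactivated through mTORC1, was higher in every db/db mouse. It had 42.5, 29.3 and 31.9 CPM in db/db islets against 13.9, 20.6 and 21.1 CPM in db/m islets (log2 fold change 0.90, adjusted p = 0.149 from edgeR). It was 0.33 when scaled by library size alone and -0.043 with the β-cell marker score as covariate (adjusted p = 0.982 from edgeR). Tsc1, an inhibitor of mTORC1, had 18.5 to 22.7 CPM in db/db mice and 23.8 to 38.5 CPM in db/m mice (log2 fold change -0.60, adjusted p = 0.300 from edgeR). These genes and Tbc1d1, which was lower with overlapping groups, had an unadjusted p under 0.05, and the other 12 tested Akt targets did not pass that level. Of the 15 tested Akt targets 13.3% were thus lower and 6.67% higher, against 9.89% and 5.04% of all tested genes.

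Of 15 tested genes known as FoxO targets in other tissues, 2 were lower (13.3%) and 0 higher in db/db islets at an unadjusted p under 0.05 from edgeR. Among all tested genes these shares were 9.89% and 5.04%. Cited2 had 14.5, 9.75 and 10.7 CPM in db/db islets against 18.2, 18.5 and 23.1 CPM in db/m islets (log2 fold change -0.77, adjusted p = 0.181 from edgeR), and the value was -1.34 with the β-cell marker score as covariate. Sesn3 had 2.17 to 8.19 CPM in db/db mice and 8.50 to 19.5 CPM in db/m mice (log2 fold change -1.15, adjusted p = 0.306 from edgeR), and 0.96 with the β-cell marker score as a covariate. The median of these 15 genes was -0.17. The other FoxO genes Foxo3 (log2 fold change 0.12), Foxo4 (0.30) and Foxo6 (-0.31) had adjusted p-values of at least 0.696 from edgeR.

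Of the 17 tested inhibitors besides Grb10, 1 was lower and 1 higher (5.88% each) at an unadjusted p under 0.05. Among all tested genes these shares were 9.89% and 5.04%. Socs3, which is induced by cytokines and leptin and blocks receptor signalling, had 2.65, 5.68 and 4.10 CPM in db/db islets against 13.6, 11.2 and 5.85 CPM in db/m islets (log2 fold change -1.30, adjusted p = 0.166 from edgeR). The groups did not overlap, but db/m replicate 3 was close to the db/db mice. With the β-cell marker score as covariate the log2 fold change was 0.0013. Trib3, a stress-induced protein that can bind Akt, had 7.87, 23.0 and 26.6 CPM in db/db islets against 8.70, 2.15 and 11.7 CPM in db/m islets (log2 fold change 1.34, adjusted p = 0.333 from edgeR). The relatives of Grb10 had log2 fold changes of 0.0031 for Grb7 and -1.03 for Grb14 (adjusted p = 0.359 from edgeR). In the Ras-ERK arm, 1 of 14 tested genes (7.14%), Braf, was lower at an unadjusted p under 0.05, against 9.89% of all tested genes. Braf had 22.4 to 32.0 CPM in db/db mice and 43.8 to 49.3 CPM in db/m mice (log2 fold change -0.72, adjusted p = 0.181 from edgeR). The remaining 13 genes of that arm had log2 fold changes between -0.54 and 0.68.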

How the data were processed

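The deposited values are raw read counts per gene symbol for the islets of 6 mice, 3 per group, which the authors obtained after trimming and quality filtering of the reads and mapping to mm10. The paper names TopHat for mapping, whereas the submitters' processing notes name HISAT2 2.0.4. The counting program, gene annotation and use of strand are not given in the sources used here. Columns were assigned to mice by the sample titles, and genes listed under older symbols were matched through RefSeq.

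Differences were tested with edgeR 4.0.16 under R 4.3.3 by its quasi-likelihood method after filterByExpr and TMM scaling, and p-values were adjusted over 12760 genes by Benjamini-Hochberg, with 0.05 as the limit. The standard error given is the absolute log2 fold change over the square root of the F statistic. The pipeline was tested on simulated counts. A value per mouse, such as a ratio, was tested by exact permutation (two-sided). Ratios of counts had 0.5 added to each count. Marker scores were means of log2(CPM + 1). The sources call the db/m mice littermates but tie no replicate number to a litter, and the model had no block. Within a group, each pair of libraries varied beyond counting noise (26.5 to 147 for chi-square over its degrees of freedom). P-values from edgeR weigh a difference against the spread between these mice, which is estimated for each gene with information from all tested genes. Those from exact permutation compare a difference with that of every other split of the mice.

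The 9 genes and the pathway and marker lists were chosen with earlier results of these data known. Genes of the list named in the text were those with an adjusted p under 0.05, those with an unadjusted p under 0.05 and no overlap between groups, paralogs of the 9 genes and ligands, and the 5 genes most alike to Irs2 had a mean of at least 10 CPM. Tbc1d1, Trib3, Shc1, Grb2 and Gab1 were named after their values were seen. Of the paralogs not described above, Irs3 and Irs4 did not pass the filter on low counts. Igf2r, Pik3r2 and Pik3r3 had log2 fold changes of 0.048, 0.069 and -1.13 (adjusted p = 0.945, 0.897 and 0.503 from edgeR). Exon lengths, positions and promoters came from RefSeq on GRCm38.p6, with promoters matched for 8 of the 9 genes, and shared 50-base stretches from GENCODE M21 transcripts. DESeq2 1.42.0, other scalings and filters, marker scores, a replicate block and leaving out each mouse were alternatives. 1 gene of the pathway list counts in the totals but is not reported or plotted by itself here.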

Additional observations from a re-analysis of the deposited data

How the results depend on the processing

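An adjusted p under 0.05 was found for 79 of all tested genes, and for 707 with DESeq2, 888 without a filter beyond 1 count, 52 with upper-quartile factors, 21 with library size in place of TMM, 15 with the β-cell marker score as a covariate and 16 with the replicate block. With each mouse left out the number lay between 10 of 13535 (without db/db replicate 2) and 333 of 13640 (without db/m replicate 3). Among the 9 genes that number was 0, against 2 with DESeq2 and 2 without a filter beyond 1 count, and 0 to 1 with each mouse left out. Of the 9 genes, 4 had an unadjusted p under 0.05, against 2 with the replicate block and 2 to 4 with each mouse left out. These were not always the same genes. Without db/m replicate 2 they were Irs1, Irs2 and Pik3r1, the last higher in db/db islets (0.69, unadjusted p = 0.0442 from edgeR). With the β-cell marker score they were Igf1r, Insr and Irs1, all lower. Mice of the same replicate number did not deviate together (correlation across genes -0.53, -0.18 and -0.32), so that the replicate block pairs them by number only. With library size in place of TMM there were 4 as well, all lower, with Insr in place of Grb10. Insr was 0.12 below the median of all tested genes in that setting. Shares of all tested genes at an unadjusted p under 0.05 were not determined for library size, the β-cell marker score, the replicate block or the left-out mice. The pathway list had 11 genes at an unadjusted p under 0.05, 21 with library size, all lower, and 8 to 15 with each mouse left out. The cause of these shifts was not tested.

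Log2 fold changes of Irs1 were -1.32 with DESeq2 and -1.33 without a filter beyond 1 count (adjusted p = 0.0331 and 0.00428), and those of Irs2 were -1.89 and -1.88 (adjusted p = 0.00638 and 5.9e-05). With each mouse left out, values lay between -2.29 and -1.41 for Irs2, -1.55 and -0.73 for Irs1, -1.25 and -0.33 for Igf1r, -0.45 and 0.18 for Insr, -0.32 and 0.69 for Pik3r1, and -0.32 and -0.01 for Akt1. They lay between -0.40 and -0.16 for Foxo1, 0.20 and 0.37 for Akt2, and 0.54 and 0.91 for Grb10. The sign changed for Akt2 with library size (-0.27), for Pik3r1 with upper-quartile factors (0.0019) and the replicate block (0.17), and for Akt1 (0.051) and Foxo1 (0.19) with the β-cell marker score. The log2 ratio of Foxo1 to Akt1 was between -0.35 and 0.075 with each mouse left out. A fit with 1 mouse left out has 2 mice in a group and pools the spread. Depth limits Igf1r (101 to 437 counts per mouse), Irs1 (119 to 623) and Irs2 (90 to 1112) more than the other 6 genes in the db/db mice.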
